A study of Drosophila melanogaster with 24 samples.

Results

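The Dorsal group genes set up the dorsal-ventral axis of the Drosophila embryo. Here 9 of them were followed: the proteases gastrulation defective (gd), snake (snk) and easter (ea), the ligand spätzle (spz), the receptor Toll (Tl), the adaptor tube (tub), the kinase pelle (pll), the inhibitor cactus (cact) and the transcription factor dorsal (dl). They were chosen by gene symbol, as members of 1 pathway, with earlier results of these data known, and account for 9 of the 14005 gene symbols and 21 of the 17769 transcripts with values on the array. Of those 21 array entries 12 belonged to spz, 2 to dl and 1 to each of the other 7 genes. Each entry is called by its gene symbol followed by the letter of the encoded polypeptide, as in dl-PA.

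The mother supplies the mRNAs or proteins of this pathway to the egg. After egg laying, a cascade in the fluid around the embryo, in which Gd acts on Snk and Snk acts on Ea, ends with Ea cutting Spz on the ventral side. Cut Spz binds Toll, the adaptors Myd88 and Tube recruit the kinase Pelle, Cactus is destroyed, and Dorsal enters ventral nuclei, where it turns genes such as twi and sna on and genes such as zen off. Many maternal mRNAs are then cleared as the embryo turns on its own genome. Brain tumor (BRAT) is a maternally supplied RNA-binding protein that represses and destabilizes some of them.

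Embryos came from brat mutant females, which had 1 copy of the allele brat fs1 and, on the homolog, the deficiency Df(2L)TE37C-7, or from w1118 flies, the wild-type control. The mutant females were mated to males from the same cross, most of which carried the balancer CyO with either brat fs1 or Df(2L)TE37C-7, so the mutant and control groups also differed in the deficiency, the balancer and the rest of the genetic background, which cannot be told apart from brat. Whole embryos of each genotype were sampled in 4 consecutive windows of 1.5 h, the first starting at egg laying (0-1.5 h) and the last ending at 6 h, giving 8 groups of 3 biological replicates and 24 samples, each labelled with Cy3 or Cy5 and hybridized to a NimbleGen array. Values are normalized log2 intensities, so that a difference of 1 is a doubling, and they are compared between samples for 1 transcript, not between transcripts.

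Within groups the samples correlated at r = 0.92 to 0.97 over the 7734 transcripts that entered the tests by the rule given below. Of the 24 samples, 22 were nearest to a sample of their own group, and the rest to a sample of another time window. Of 17 early zygotic genes tested, 15 rose between the first and second time windows in brat mutant embryos and 17 in w1118 embryos, where 14.5% and 19.7% of all genes rose. Of the 19 listed, 7 and 1 were expressed in the first window in brat mutant and w1118 embryos, against 14 and 17 in the second. These rises were thus partly fixed by the rule for entering the tests and are a weak check. None of 16 eggshell and follicle cell genes was expressed in any group. The brat transcript itself, which the fs1 allele need not remove, averaged 13.29 ± 0.11 in brat mutant embryos and 13.96 ± 0.25 in w1118 embryos at 0-1.5 h (SD, n = 3 each). That difference of -0.67 did not pass the test (SE 0.20, adjusted p = 0.0541 by limma), and later differences lay between -0.08 and 0.11. Because the fs1 allele is a point mutation and the deficiency is heterozygous in the mothers, these levels are no strict check of the labels.

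A transcript counted as expressed where its level exceeded the average over the whole array in 1 or more groups (limma, adjusted p under 0.05). The mean of all transcripts was 9.54 to 9.58 in every sample. By this rule 7734 transcripts of 5779 genes entered the tests, among them 18 transcripts of 7 of the 9 genes. The transcripts gd-PA, snk-PA and dl-PC did not pass and were not tested. The plot of levels by time window shows all 9 genes.

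**Figure D1:**
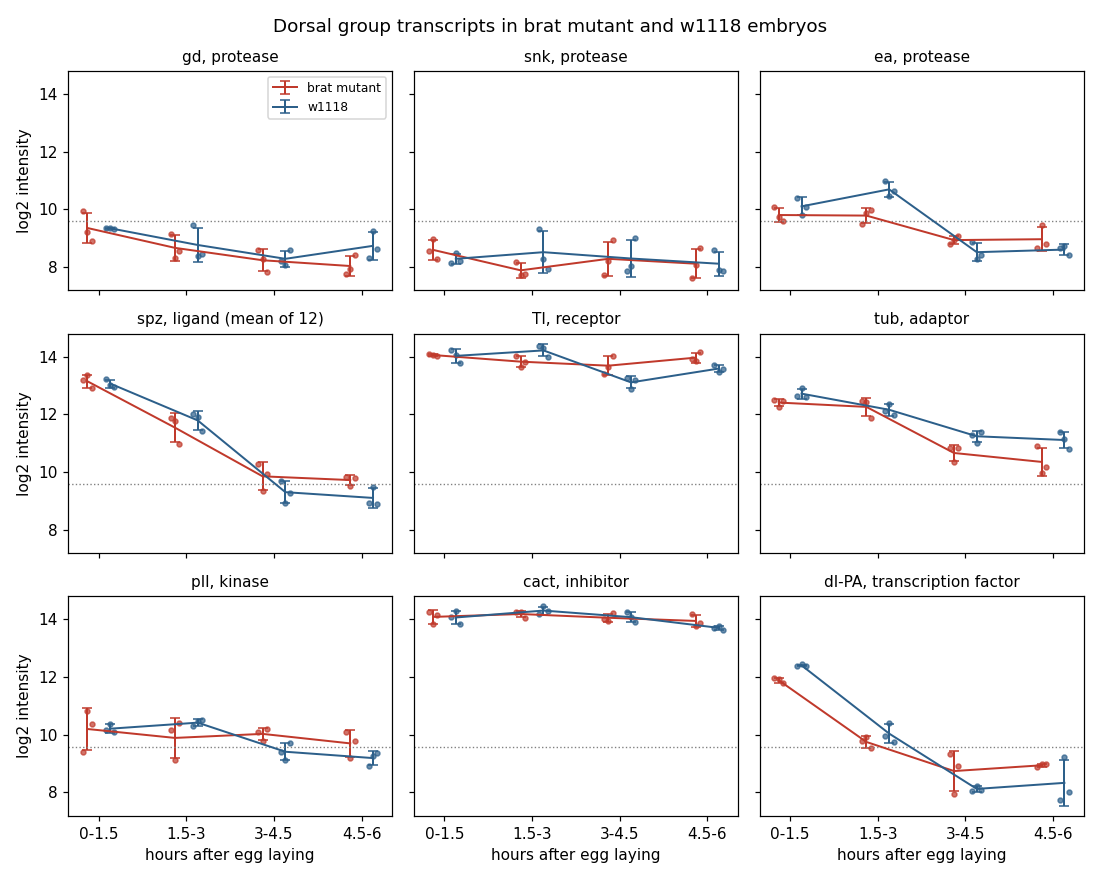
Normalized log2 intensity (vertical axis) of each gene in the 4 time windows in hours after egg laying (horizontal axis), in brat mutant (red) and w1118 (blue) embryos. Dots are the 3 samples of a group, lines join the group means, bars are SD, the dotted line is the highest sample mean of all transcripts (9.58), and spz is the mean of its 12 transcripts. The levels of spz and dl-PA dropped steeply within the first 3 windows in both genotypes, whereas cact stayed between 13.62 and 14.46 in all 24 samples.

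The proteases come first in the cascade. The array values of gd and snk stayed low in all groups. For gd-PA, group means ran between 8.03 ± 0.35 in brat mutant embryos at 4.5-6 h and 9.35 ± 0.53 in brat mutant embryos at 0-1.5 h (SD, n = 3), and the w1118 mean at 0-1.5 h was 9.34 ± 0.02. For snk-PA they ran between 7.88 ± 0.26 in brat mutant embryos and 8.51 ± 0.73 in w1118 embryos, both at 1.5-3 h. All 8 group means of either transcript lay below the mean of all transcripts, and no change in them was tested.

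The third protease, ea, which cuts Spz, was the only one of the 3 that reached the tests. It did so through the 2 groups in which it was brightest, w1118 embryos at 0-1.5 h and at 1.5-3 h, so differences of the other groups from these 2, the call at 1.5-3 h included, were partly fixed by the filter. At 0-1.5 h, ea-PA had 10.07, 9.73 and 9.59 in brat mutant embryos, against 10.40, 9.79 and 10.09 in w1118 embryos. At 1.5-3 h it had 9.49, 9.88 and 9.97 in brat mutant embryos, against 10.98, 10.46 and 10.64 in w1118 embryos. The genotypes overlapped in the first window, and in the second every mutant sample lay below every control sample.

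The later windows were close to each other. At 3-4.5 h ea-PA had 8.80, 8.95 and 9.06 in brat mutant embryos, against 8.86, 8.27 and 8.41 in w1118 embryos, and at 4.5-6 h it had 8.66, 9.44 and 8.79 in brat mutant embryos, against 8.67, 8.74 and 8.40 in w1118 embryos. In order of their means the groups ran w1118 at 1.5-3 h (10.69), w1118 at 0-1.5 h (10.10), the brat mutant at 0-1.5 h (9.80) and 1.5-3 h (9.78), and then all later groups, from 8.96 down to 8.51. Neighbours in that order overlapped except w1118 at 1.5-3 h with w1118 at 0-1.5 h, the brat mutant at 1.5-3 h with that at 4.5-6 h, and the brat mutant at 3-4.5 h with w1118 at 4.5-6 h.

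The ligand gene spz was measured by 12 transcript entries that share one gene and moved together, with pairwise r between 0.92 and 0.99 over the 24 samples (66 pairs). They are not replicates of each other. The mean over the 12 was 13.18, 13.37 and 12.91 in brat mutant embryos at 0-1.5 h, against 13.22, 13.03 and 12.96 in w1118 embryos. At 1.5-3 h it was 11.87, 11.78 and 10.96 in brat mutant embryos, against 12.02, 11.92 and 11.43 in w1118 embryos. The genotypes overlapped in both early windows, and every sample of the second window lay below every sample of the first.

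At 3-4.5 h the spz mean was 10.29, 9.33 and 9.93 in brat mutant embryos, against 9.69, 8.93 and 9.27 in w1118 embryos. At 4.5-6 h it was 9.84, 9.53 and 9.78 in brat mutant embryos, against 8.91, 9.48 and 8.89 in w1118 embryos. In the last window every mutant sample lay above every control sample, by little between replicates 2 of both genotypes. From the first to the last window the group mean fell by 3.43 in brat mutant embryos and fell by 3.98 in w1118 embryos. In brat mutant embryos 2 of 12 transcripts were expressed at 3-4.5 h and 3 at 4.5-6 h, and in w1118 embryos 0 were in either window.

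**Figure D2:**
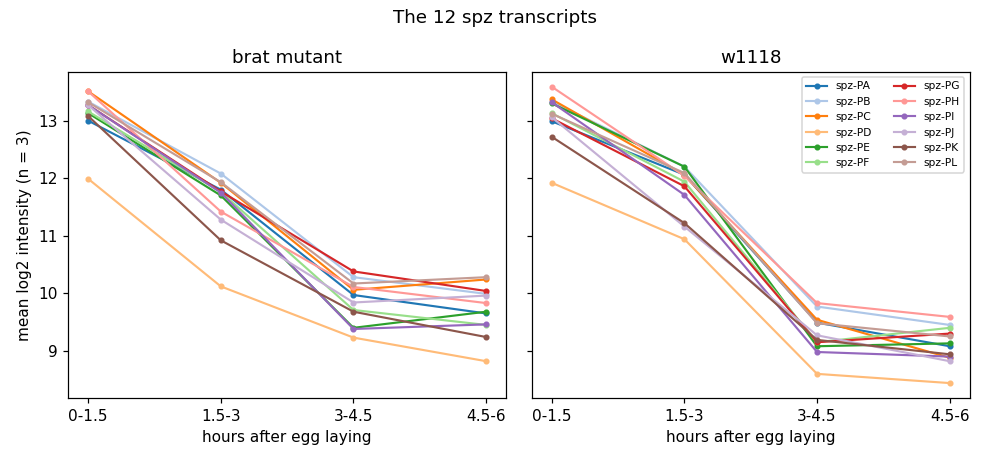
Mean normalized log2 intensity (vertical axis) of each of the 12 spz transcripts in the 4 time windows (horizontal axis, hours after egg laying), in brat mutant embryos (left) and w1118 embryos (right), n = 3 samples per point. All 12 lines drop steeply over the first 3 windows in both panels and are nearly flat afterwards, and heights of different lines are not comparable because each has its own probes.

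Toll, the receptor, stayed bright throughout. Tl-PA had 14.08, 14.07 and 14.03 in brat mutant embryos at 0-1.5 h, against 14.25, 14.05 and 13.78 in w1118 embryos. It had 14.01, 13.65 and 13.83 in brat mutant embryos at 1.5-3 h, against 14.38, 14.29 and 13.99 in w1118 embryos. The genotypes overlapped in both windows. At 3-4.5 h it had 13.40, 13.65 and 14.03 in brat mutant embryos, against 13.26, 12.87 and 13.20 in w1118 embryos, the lowest of the 8 groups.

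At 4.5-6 h Tl-PA had 13.91, 13.84 and 14.17 in brat mutant embryos, against 13.72, 13.48 and 13.58 in w1118 embryos. In both late windows every mutant sample lay above every control sample. The order of the group means ran down from w1118 at 1.5-3 h (14.22) through the 4 mutant groups and the first w1118 window, which lay between 14.06 and 13.69, to w1118 at 4.5-6 h (13.59) and at 3-4.5 h (13.11). Neighbours in the upper part of that order overlapped, and the lowest 2 groups did not overlap each other.

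Of the cytoplasmic partners, tube, the adaptor, dropped in both genotypes and lay lowest in late mutant embryos. At 0-1.5 h tub-PB had 12.50, 12.26 and 12.47 in brat mutant embryos, against 12.63, 12.91 and 12.62 in w1118 embryos, and at 1.5-3 h it had 12.45, 12.43 and 11.89 in brat mutant embryos, against 12.12, 12.37 and 11.98 in w1118 embryos. At 3-4.5 h it had 10.82, 10.34 and 10.82 in brat mutant embryos, against 11.30, 11.02 and 11.40 in w1118 embryos, and at 4.5-6 h it had 10.90, 9.98 and 10.16 in brat mutant embryos, against 11.38, 11.14 and 10.80 in w1118 embryos. The genotypes did not overlap at 0-1.5 h or at 3-4.5 h, and they overlapped at 4.5-6 h through mutant replicate 1. By mean, the 4 early groups (12.72 to 12.16) came before w1118 at 3-4.5 h (11.24) and 4.5-6 h (11.11) and the brat mutant at 3-4.5 h (10.66) and 4.5-6 h (10.35).

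The mutant samples of the kinase gene pelle were scattered. At 0-1.5 h pll-PA had 9.40, 10.82 and 10.38 in brat mutant embryos, against 10.17, 10.38 and 10.09 in w1118 embryos, and at 1.5-3 h it had 10.15, 9.11 and 10.41 in brat mutant embryos, against 10.30, 10.46 and 10.50 in w1118 embryos. At 3-4.5 h it had 10.10, 9.79 and 10.20 in brat mutant embryos, against 9.39, 9.14 and 9.71 in w1118 embryos, and at 4.5-6 h it had 10.11, 9.19 and 9.80 in brat mutant embryos, against 8.92, 9.27 and 9.37 in w1118 embryos. The genotypes overlapped in every window except 3-4.5 h, where the mutant samples lay above. Mutant means stayed between 9.70 and 10.20 in all windows, and w1118 means were 10.21, 10.42, 9.41 and 9.19 in time order. The entry for pll overlaps that of TfIIA-L in the annotation, and which probes cover the shared stretch is not given in the sources used here.

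Cactus, which holds Dorsal in the cytoplasm, varied little. Its group means lay between 13.95 and 14.19 in brat mutant embryos and between 13.71 and 14.31 in w1118 embryos, with SDs of 0.08 to 0.23. At 4.5-6 h cact-PA had 14.20, 13.78 and 13.89 in brat mutant embryos, against 13.71, 13.78 and 13.62 in w1118 embryos, the lowest of the 8 groups. The genotypes overlapped in all 4 windows. The gene overlaps fzy in the annotation.

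Dorsal, the transcription factor at the end of the pathway, declined steeply. At 0-1.5 h dl-PA had 11.96, 11.94 and 11.79 in brat mutant embryos, against 12.39, 12.44 and 12.40 in w1118 embryos. At 1.5-3 h it had 9.80, 9.92 and 9.53 in brat mutant embryos, against 9.96, 10.41 and 9.74 in w1118 embryos. Every mutant sample of the first window lay below every control sample, and the second window overlapped. By mean the groups ran w1118 (12.41) and brat mutant (11.89) at 0-1.5 h, w1118 (10.04) and brat mutant (9.75) at 1.5-3 h, and the 4 late groups between 8.94 and 8.12. Neighbours in that order overlapped at 1.5-3 h and among the late groups, and the other neighbours did not.

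At 3-4.5 h dl-PA had 9.34, 7.96 and 8.91 in brat mutant embryos, against 8.05, 8.23 and 8.09 in w1118 embryos, and at 4.5-6 h it had 8.87, 8.98 and 8.98 in brat mutant embryos, against 7.73, 9.24 and 8.03 in w1118 embryos. One sample stood apart in each of these windows, the low mutant replicate 2 at 3-4.5 h and the high w1118 replicate 2 at 4.5-6 h. All 4 late group means lay below the mean of all transcripts. The other entry, dl-PC, had group means of 8.24 to 8.50 in brat mutant embryos and 7.77 to 8.34 in w1118 embryos and was not expressed in any group.

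The first question was whether any of these mRNAs differed between genotypes at a given age. Only 2 of the 7 genes tested differed in any window by limma with Benjamini-Hochberg adjustment over all 7734 transcripts at 5%: ea was lower in the mutant at 1.5-3 h, and 1 of 12 spz transcripts was higher at 4.5-6 h. Neither gene was called in any other window, and Tl, tub, pll, cact and dl were called in none. Over all 5779 genes the calls made up 5.61% higher and 4.19% lower at 0-1.5 h, 4.79% and 3.7% at 1.5-3 h, 2.7% and 1.49% at 3-4.5 h, and 6.75% and 5.52% at 4.5-6 h. With 7 genes tested, 1 call in a window is too few to set against those shares and is no result about the pathway. In whole embryos, fewer cells of a type and less RNA per cell cannot be told apart.

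At 1.5-3 h ea-PA averaged 9.78 ± 0.25 in brat mutant embryos and 10.69 ± 0.27 in w1118 embryos (SD, n = 3 each), a log2 difference of -0.91 (SE 0.23, adjusted p = 0.0465, limma) or 1.88-fold lower. The call did not survive leaving out any 1 of the 6 samples (differences of -1.03 to -0.77, adjusted p of 0.079 to 0.131) or adding dye as a covariate (adjusted p = 0.106). In the same window 7 of 17 early zygotic genes were lower in brat mutant embryos and 3 of 11 later embryo genes were higher, with median differences of -1.0 and 0.83 against -0.04 for all genes. The mean level of 19 early zygotic genes was 10.91 to 11.66 in brat mutant samples and 12.15 to 12.29 in w1118 samples, and that of 14 later embryo genes was 9.87 to 10.44 in brat mutant samples and 9.25 to 9.61 in w1118 samples. The part of these shifts in the ea result was not tested.

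At 4.5-6 h spz-PC had 10.42, 9.71 and 10.59 in brat mutant embryos, against 8.98, 9.55 and 8.10 in w1118 embryos. The groups did not overlap, and the difference was 1.36 (SE 0.37, adjusted p = 0.04997, limma), at the edge of the threshold. All 12 spz transcripts had positive differences at 3-4.5 h (median 0.52, range 0.28 to 1.23) and at 4.5-6 h (median 0.56, range 0.05 to 1.36), against 8 of 12 at 0-1.5 h (median 0.05) and 2 of 12 at 1.5-3 h (median -0.17). Averaged to 1 value per gene, spz differed by 0.55 at 3-4.5 h (SE 0.30, adjusted p = 0.307) and by 0.62 at 4.5-6 h (SE 0.21, adjusted p = 0.0912), neither of which passed. Leaving out 1 sample at 4.5-6 h ended the call for mutant replicates 1 and 2 and w1118 replicates 1 and 3, each with 0 spz transcripts called. At 3-4.5 h and 4.5-6 h, 5 and 4 of 12 unstable maternal genes were higher in brat mutant embryos, and 1 was lower at 4.5-6 h, Hsp83 (-0.95, adjusted p = 0.0265). The mean level of all 13 was 10.62 to 11.21 in brat mutant samples and 10.24 to 10.35 in w1118 samples at 3-4.5 h, and 10.85 to 11.08 in brat mutant samples and 9.91 to 10.73 in w1118 samples at 4.5-6 h. The part of this shift in the spz values was not tested. Among all tested transcripts 179 were higher and 89 lower at 3-4.5 h, and without mutant replicate 1 these were 7 and 5. The calls of the unstable maternal genes were not recalculated with samples left out.

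**Figure D3:**
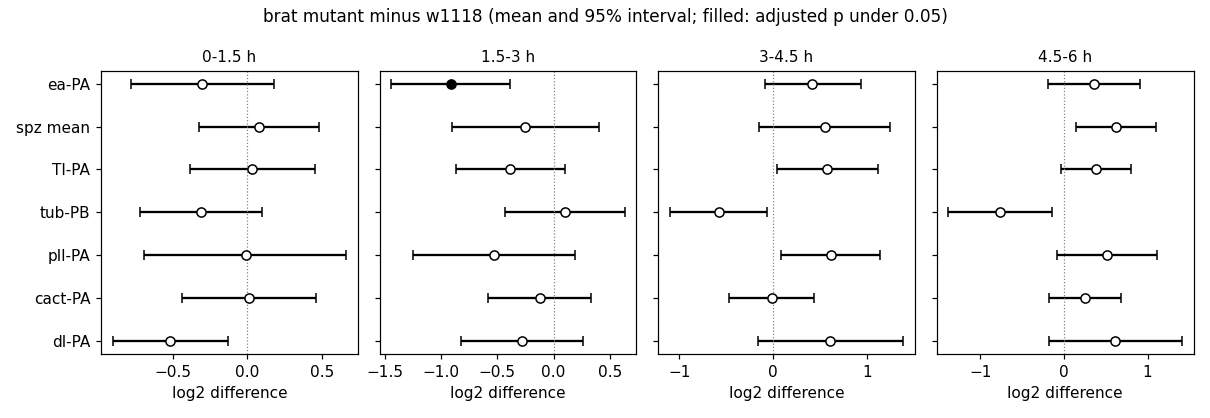
Difference in log2 intensity between brat mutant and w1118 embryos (horizontal axes, brat mutant minus w1118) for 6 transcripts and the spz gene mean, in the 4 time windows. Points are means of 3 against 3 samples, bars are 95% intervals and filled points had an adjusted p under 0.05 by limma. The only filled point is ea-PA at 1.5-3 h, at -0.91.

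At 0-1.5 h no gene was called by limma, and the SAM test called 1, dl. The dl-PA difference was -0.52 (SE 0.18, adjusted p = 0.0937, limma), with 95% bounds of -0.90 and -0.13, and all 3 mutant samples lay below the control samples. At 3-4.5 h no gene was called by limma, and SAM called 1, spz. In that window Tl-PA differed by 0.58 (SE 0.24, limma adjusted p = 0.194), pll-PA by 0.62 (SE 0.23, adjusted p = 0.163) and tub-PB by -0.58 (SE 0.23, adjusted p = 0.178). The groups did not overlap for any of the 3. How many of all genes had groups without overlap was not counted, so this is no result about the pathway. At 4.5-6 h tub-PB differed by -0.76 (SE 0.28, adjusted p = 0.115), and dl-PA differed by 0.61 (adjusted p = 0.294). Leaving out 1 sample moved the dl-PA difference between 0.31 (without w1118 replicate 1, adjusted p = 0.63) and 1.06 (without w1118 replicate 2, adjusted p = 0.0247), and with dye as a covariate it was 0.39. The cact-PA differences lay between -0.12 and 0.25, with 95% bounds no wider than -0.58 and 0.68.

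The second question was when each mRNA was lost. Between 0-1.5 h and 1.5-3 h, dl and spz fell in both genotypes, and Tl, tub, pll and cact did not pass in either. In brat mutant embryos dl-PA fell by 2.14 (SE 0.31, adjusted p = 1.56e-05, limma), or 4.41-fold, and in w1118 embryos it fell by 2.37 (SE 0.31, adjusted p = 1.97e-06), or 5.19-fold. All 12 spz transcripts fell in brat mutant embryos (at the median they fell by 1.50, range -2.15 to -1.21) and 11 of 12 in w1118 embryos (median -1.19, range -1.90 to -0.93). The exception, spz-PA, changed by -0.93 in w1118 embryos (adjusted p = 0.0637).

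In this step 2 of 7 genes fell and 0 rose in brat mutant embryos, where 21% of all tested genes fell and 14.5% rose, and 2 fell and 1 rose in w1118 embryos, where 26% fell and 19.7% rose. The gene that rose was ea, by 0.60 (SE 0.23, adjusted p = 0.0402), while the change in brat mutant embryos was -0.01 (SE 0.23). The ea rise was lost without w1118 replicates 2 or 3 of the first window or replicates 1 or 3 of the second (0.45 to 0.63). It was also lost with no filter on expression and with limma-trend. The 2 w1118 groups compared are those that brought ea into the tests. Under scaling to ribosomal protein genes the rise was 0.28 (adjusted p = 0.38). That scaling lowered the median change of all tested transcripts to -0.25 in brat mutant and -0.24 in w1118 embryos, against 0.02 and 0.08 as deposited, and moved the share of called transcripts that rose to 23.4% and 20.6%, against 43.5% and 44.7%. Relative to either scale dl and spz fell. In w1118 embryos tub-PB changed by -0.56 (adjusted p = 0.0547), a change that passed under that scaling (-0.88, adjusted p = 0.00909).

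Between 1.5-3 h and 3-4.5 h most of the 7 tested genes fell, more of them in w1118 than in brat mutant embryos. In brat mutant embryos 4 of 7 genes fell (dl, tub, spz and ea), where 9.71% of all genes fell and 6.06% rose. In w1118 embryos 6 of 7 genes fell, all but cact, where 25.7% of all genes fell and 22.3% rose. No member rose in either genotype. The transcripts dl-PA, ea-PA and 8 of 12 of spz entered the tests through groups of the first 2 windows only, and no spz transcript was expressed in w1118 embryos after them, so these falls were partly fixed by the filter. Without the filter dl, ea and spz still fell in w1118 embryos, and ea and spz but not dl in brat mutant embryos.

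For spz, 11 of 12 transcripts fell in brat mutant embryos (median -1.78, range -2.38 to -0.89), the exception being spz-PD at -0.89 (adjusted p = 0.0957), and 12 of 12 fell in w1118 embryos (median -2.54, range -3.11 to -1.89). For dl-PA the fall was 1.02 in brat mutant embryos (SE 0.31, adjusted p = 0.0338, limma) and 1.91 in w1118 embryos (SE 0.31, adjusted p = 3.45e-05). The mutant fall of dl was lost without mutant replicates 1 or 2 of the earlier window or replicate 2 of the later one (-0.99, -0.93 and -0.63). Averaging dl-PA with the dim dl-PC also ended it (-0.39, adjusted p = 0.186), as did testing all transcripts without the filter (adjusted p = 0.0612). For tub-PB the fall was 1.60 in brat mutant embryos (SE 0.23, adjusted p = 0.000136), or 3.02-fold, and 0.92 in w1118 embryos (SE 0.23, adjusted p = 0.00267), or 1.89-fold.

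The receptor and kinase transcripts fell in w1118 embryos and did not pass in the mutant. Tl-PA fell by 1.11 in w1118 embryos (SE 0.19, adjusted p = 5.91e-05), where the mutant change was -0.14 (SE 0.19, adjusted p = 0.668). The kinase transcript pll-PA fell by 1.01 in w1118 embryos (SE 0.32, adjusted p = 0.0137), and the mutant change was 0.14 (SE 0.32, adjusted p = 0.818). The pll fall was -0.87 without w1118 replicate 2 of 3-4.5 h and no longer passed (adjusted p = 0.059). The protease transcript ea-PA fell by 0.85 in brat mutant embryos (SE 0.23, adjusted p = 0.019), or 1.80-fold, and fell by 2.18 in w1118 embryos (SE 0.23, adjusted p = 2.56e-07), or 4.54-fold. The mutant fall of ea was lost without mutant replicates 2 or 3 of the earlier window or 1 or 2 of the later one (-0.86 to -0.75).

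**Figure D4:**
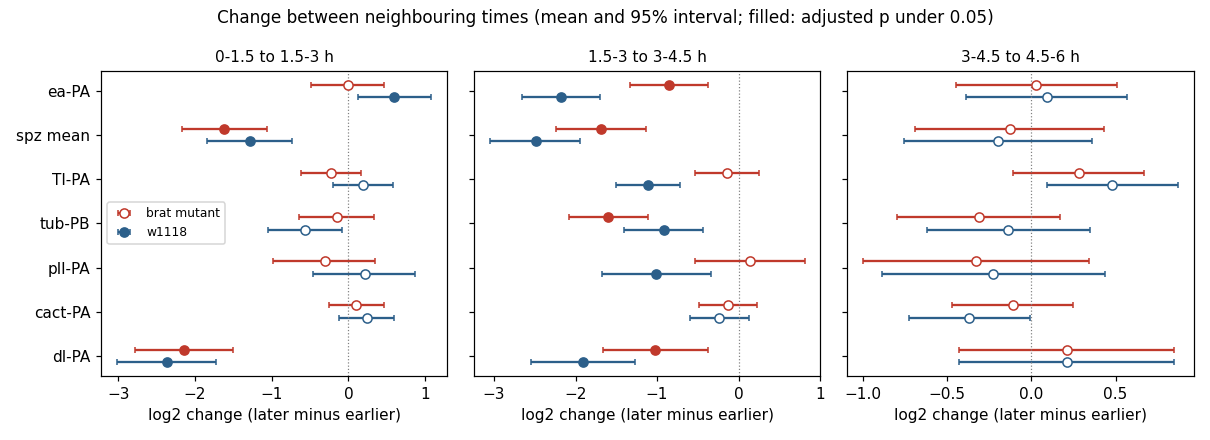
Change in log2 intensity between neighbouring time windows (horizontal axes, later minus earlier) for 6 transcripts and the spz gene mean, in brat mutant (red) and w1118 (blue) embryos. Points are differences of group means (n = 3 each), bars are 95% intervals and filled points had an adjusted p under 0.05 by limma. In the middle step Tl-PA and ea-PA changed by -0.14 and -0.85 in brat mutant embryos, against -1.11 and -2.18 in w1118 embryos.

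The third question was whether the change over time itself depended on the genotype. From 1.5-3 h to 3-4.5 h, 2 of 7 genes passed, both falling less in the mutant: the difference of the changes was 1.34 for ea-PA (SE 0.33, adjusted p = 0.0225, limma) and 0.97 for Tl-PA (SE 0.27, adjusted p = 0.0389). Over all genes 2.84% had a positive and 2.96% a negative difference that passed. Neither result was stable to the loss of single samples, and without the filter neither passed (adjusted p = 0.0534 for ea and 0.107 for Tl). The high arm of the ea contrast, w1118 at 1.5-3 h, is 1 of the 2 groups that brought ea into the tests. The ea call was lost without brat mutant replicate 1 of the earlier window or 3 of the later, w1118 replicate 1 of the earlier, or w1118 replicates 2 or 3 of the later (1.19 to 1.28). The Tl call was lost without mutant replicates 2 or 3 of the earlier window or 3 of the later, or w1118 replicates 1 or 2 of the earlier or 2 or 3 of the later (0.80 to 1.01).

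For the other genes the difference of the changes was not established. It was 1.15 for pll-PA (SE 0.46, adjusted p = 0.146), 0.90 for dl-PA (SE 0.44, adjusted p = 0.251) and -0.68 for tub-PB (SE 0.33, adjusted p = 0.249). All 12 spz transcripts had positive values (median 0.77, range 0.35 to 1.45) and 0 passed, with 2 at an unadjusted p under 0.05, and the gene mean gave 0.81 (SE 0.38, adjusted p = 0.227). For cact-PA it was 0.11, with 95% bounds of -0.40 and 0.62. In the same contrast 3 of 11 later embryo genes had a negative difference that passed (median -1.03) and 2 of 12 unstable maternal genes a positive one (median 0.70), against a median of -0.01 for all genes, and their part in the Tl and ea results was not tested. In the earlier step no member passed and 0 had an unadjusted p under 0.05, where 0.519% of all genes had a positive and 0.675% a negative difference that passed.

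Between 3-4.5 h and 4.5-6 h no member changed by limma in either genotype. In brat mutant embryos 0.502% of all genes rose and 0.536% fell, and in w1118 embryos 5.76% rose and 4.26% fell. The w1118 changes of Tl-PA (0.48, SE 0.19, limma adjusted p = 0.12) and cact-PA (-0.37, SE 0.17, adjusted p = 0.21) did not pass. The median change over the 12 spz transcripts was -0.27 in brat mutant and -0.23 in w1118 embryos.

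The 7 genes did not share one time course. Over the 24 samples dl and spz correlated at r = 0.95, tub and spz at 0.87, and ea and spz at 0.79, while cact correlated with the others at 0.31 to 0.50. These values describe samples that share time windows and genotypes. Among 5772 other expressed genes, the nearest to spz were E23 (r = 0.99) and aret (0.98), the nearest to dl were yip2 and yin (0.97 each), and the nearest to tub were mus81 and CG31517 (0.92 each). For ea they were mael (0.92) and MESR6 (0.91), for Tl CG17883 (0.89) and CG8233 (0.87), for cact Aps (0.88) and CG4880 (0.83), and for pll CG1753 (0.79) and l_2_05070 (0.77).

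Genes that Dorsal regulates in the embryo mostly rose over the step in which dl mRNA first fell. Of 14 such genes tested, 12 rose between the first and second windows in brat mutant embryos (median change 1.64) and 13 in w1118 embryos (median 2.31), against medians of -0.01 and 0.06 for all genes. Over all genes 14.5% rose in that step in brat mutant embryos and 19.7% in w1118 embryos. Of the 19 listed, 4 were expressed at 0-1.5 h in brat mutant embryos and 0 in w1118 embryos, against 11 in each genotype at 1.5-3 h. The rises were therefore partly fixed by the filter. The largest rises were those of twi (2.17) and sna (1.96) in brat mutant embryos, both mesoderm determinants, and of sna (3.56), brk (3.34) and zen (3.27) in w1118 embryos. In the second step 4 rose and 1 fell in brat mutant embryos and 8 rose and 2 fell in w1118 embryos. Over all genes 6.06% rose and 9.71% fell in brat mutant embryos, and 22.3% rose and 25.7% fell in w1118 embryos. The target that fell in both genotypes was zen, a Dorsal-repressed homeobox gene, with changes of -1.72 in brat mutant and -3.07 in w1118 embryos. In the last step twi fell by 2.42 in brat mutant embryos and by 1.88 in w1118 embryos.

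Between genotypes these genes shifted with time. At 0-1.5 h 5 of 14 were higher in brat mutant embryos and 0 were lower, among them sna (1.72), brk (1.43) and stumps (1.38), where 5.61% of all genes were higher and 4.19% lower. At 1.5-3 h stumps was higher (0.98) and zen was lower (-1.84), where 4.79% of all genes were higher and 3.7% lower. At 3-4.5 h 0 were called, and at 4.5-6 h 2 were higher, the protease gene tld (1.69) and stumps (0.91), and 3 were lower: wntD (-1.31), twi (-0.94) and the BMP inhibitor gene sog (-0.94, adjusted p = 0.0498), where 6.75% of all genes were higher and 5.52% lower. Each stumps value is that of its transcript with the lowest p. Of the 3 tested stumps transcripts, 3 were called at 0-1.5 h, 2 at 1.5-3 h and 1 at 4.5-6 h. For the 14 genes the median difference was 0.71, 0.17, -0.42 and -0.78 in time order, against -0.03, -0.04, -0.05 and -0.09 for all genes. At 0-1.5 h 5 of 11 later embryo genes, which share tin with the Dorsal targets, were higher, with a median of 0.50. The early zygotic genes, which share zen with the Dorsal targets, had a median of 0.70 at 0-1.5 h and 2 of 17 were higher. Their mean level was 9.21 to 9.93 in brat mutant samples and 8.95 to 9.12 in w1118 samples in that window, and its part in the shift of the Dorsal targets was not tested.

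Of 20 other Toll signalling genes, 11 were tested. The adaptor gene Myd88 fell by 1.50 in w1118 embryos between 1.5-3 h and 3-4.5 h (SE 0.27, adjusted p = 0.00011, limma), the change over that step differed between genotypes by 1.48 (SE 0.38, adjusted p = 0.0299), and Myd88 was 1.47 higher in brat mutant embryos at 3-4.5 h (SE 0.25, adjusted p = 0.025). CG9311 (mop) also fell in w1118 embryos in that step, by 2.35, and fell less in the mutant, with a difference of 1.75 (adjusted p = 0.0354). In that step 4 of the 11 fell and 2 rose in w1118 embryos, and 0 fell and 1 rose in brat mutant embryos. These counts stand beside 25.7% of all genes that fell and 22.3% that rose in w1118 embryos, and 9.71% and 6.06% in brat mutant embryos, and they are no result about the list. Traf1 was 1.31 higher in brat mutant embryos at 0-1.5 h, and wntD, which is also among the Dorsal targets, was lower at 4.5-6 h (-1.31). Calls between genotypes at 3-4.5 h depended on single samples. Among all tested transcripts 179 were higher and 89 lower there. Without brat mutant replicates 1 or 3 these were 7 and 5, or 7 and 8. Without w1118 replicates 2 or 3 they were 12 and 7, or 12 and 10. Without w1118 replicate 1 they were 61 and 18, and without mutant replicate 2 they were 279 and 141. Myd88 was not recalculated this way.

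Of 12 paralogs of Toll and spz, the 4 that were tested were all Toll relatives, and all 4 rose in both genotypes between the first and second windows. Over all genes 14.5% rose in that step in brat mutant embryos and 19.7% in w1118 embryos. At 0-1.5 h 1 of the 12 was expressed in brat mutant embryos and 0 in w1118 embryos, against 4 in each genotype at 3-4.5 h. The genes thus entered the tests mostly through later windows, and the rises were partly fixed by the filter. From 1.5-3 h to 3-4.5 h 3 of 4 rose in brat mutant embryos and 4 of 4 in w1118 embryos, where 6.06% and 22.3% of all genes rose. The changes were smaller in the mutant for Toll-7 (-1.55), Toll-6 (-1.51) and Tollo (-1.22), with limma adjusted p of 0.0126 to 0.0387. Tollo was higher in brat mutant embryos at 0-1.5 h (1.20) and 1.5-3 h (1.35), and Toll-6 at 0-1.5 h (0.93). Of the 6 genes that act upstream in the follicle or egg coat 3 were tested, and pip, which encodes a sulfotransferase, was higher in brat mutant embryos at 0-1.5 h (1.67) and 1.5-3 h (1.83). Those are the values of its transcript with the lowest p. Of its 3 tested transcripts 2 were called at 0-1.5 h and 1 at 1.5-3 h.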

How the data were processed

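Total RNA of whole embryos was labelled with Cy3 or Cy5 and hybridized to custom NimbleGen arrays. Per the labels and methods, the authors quantified the scans with Nimblescan, normalized all 24 samples together with the RMA quantile method and deposited log2 values per transcript. Background correction, annotation release and which samples shared an array were not given in the sources, and dye was partly confounded with genotype. Of 17775 transcripts, 6 without values were left out. Expressed transcripts (limma, 1-sided, 5% false discovery rate, above the sample mean of all transcripts in 1 or more groups) were tested with limma 3.58.1 in R 4.3.3. Genotypes were compared per time window over 6 samples, and changes over time and their difference between genotypes in 1 fit of 24 samples. p-values were Benjamini-Hochberg adjusted over 7734 transcripts, and a gene was called where 1 or more transcripts passed. Same-numbered samples of neighbouring windows all correlated above 0.1 only in w1118 embryos between 1.5-3 h and 3-4.5 h (0.12 to 0.23, from the data and not the labels), where a replicate block changed no call. Single pairs in other steps also reached 0.23, and differently numbered pairs were not compared. Whether replicate numbers pair the samples was therefore not settled. The functions were tested on simulated data. All rows of the 9 genes are described. From the other lists up to 3 called genes per direction and comparison were named, and per tested gene the 2 most correlated genes. The members and lists were chosen with earlier results of these data known. With 3 samples against 3 an exact permutation test cannot go below 0.1, so none was used for single genes. The number of arrays limits the precision.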

Additional observations from a re-analysis of the deposited data

Results flagged for a closer look

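The change between 1.5-3 h and 3-4.5 h differed between brat mutant and w1118 embryos for 2 of the 7 genes tested. The test was of the difference itself (limma, adjusted over all 7734 transcripts). Of all 5779 genes, 2.84% had a positive and 2.96% a negative difference that passed. For ea-PA the difference of the changes was 1.34 (adjusted p = 0.0225), with changes of -0.85 in brat mutant embryos and -2.18 in w1118 embryos. For Tl-PA it was 0.97 (adjusted p = 0.0389), with changes of -0.14 in brat mutant embryos and -1.11 in w1118 embryos. Both calls were lost in some of the 12 recalculations that left out 1 sample, 5 for ea-PA and 7 for Tl-PA, and both were lost with no filter on expression. The ea-PA transcript had passed that filter through w1118 embryos at 0-1.5 h and 1.5-3 h only, and w1118 at 1.5-3 h is the high arm of its contrast.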

How the results depend on the processing

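The 12 spz transcripts are left out of the counts of single-transcript values here. For the 14 such values of the other genes that passed, 178 of 220 recalculations kept the call and direction, 42 lost the call and none changed direction. Of 1040 recalculations of values that had not passed, 13 passed and 47 changed sign without passing. In counts of the 7 tested genes called, the difference at 0-1.5 h gave 1 with SAM, against 0. At 1.5-3 h it gave 0, against 1, with no filter, dye as a covariate, the replicate block and limma-trend, and 0 to 0 with a sample left out. At 3-4.5 h, against 0, it gave 1 with ribosomal protein scaling, the replicate block and SAM, and 2 with limma-trend and with 1 fit of all 24 samples. Calls over all transcripts moved too in that window. They were 179 higher and 89 lower in the main test, 220 and 86 with ribosomal protein scaling, and 151 and 59 with the replicate block. SAM gave 443 and 146, limma-trend 425 and 283, and 1 fit of all 24 samples 610 and 420. At 4.5-6 h, against 1 tested gene, the difference gave 0 with no filter, with transcripts above the mean in every sample of a group, with transcripts averaged per gene, with dye and with the replicate block, 2 with 1 fit of all 24 samples, and 0 to 2 with a sample left out. The last w1118 step gave 1 with limma-trend, against 0. The second mutant step gave 3 with no filter and with transcripts averaged per gene, dl being lost in both, and 2 to 4 with a sample left out, against 4. The difference of changes in that step gave 1 with ribosomal protein scaling and 0 with no filter, against 2, and 0 to 2 with a sample left out. The causes were not tested. Same-numbered samples of both genotypes correlated at -0.08 to 0.19 (12 pairs, 2 above 0.1). Differently numbered pairs were not compared, so whether numbers pair the genotypes was not settled. Same-numbered samples of neighbouring windows correlated at 0.03 to 0.23 (18 pairs, 9 above 0.1). All 3 pairs exceeded 0.1 only in w1118 embryos between 1.5-3 h and 3-4.5 h. A replicate block within genotype, chosen after seeing the data, kept 6 of 7 genes called in that step and all other calls of the changes over time, and added tub in the first w1118 step (-0.56, adjusted p = 0.0403) and 1 spz transcript in the difference of changes. The dim entries gd-PA, snk-PA, dl-PC and late dl-PA limit what could be seen, since signal over background is not given.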
